A study of Mus musculus with 4 samples.

Results

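TRAV16 family receptors are T-cell receptors whose alpha chain carries a V segment of the TRAV16 family. They were taken from single-cell receptor libraries of mouse pancreatic islets as every alpha-chain (TRA) contig whose deposited V name starts with TRAV16 and holds no DV, in a called cell, with the contig high-confidence, full-length and productive. The choice used the V name alone, so the J partner, the CDR3, the beta chain (TRB) and the clone size were free to vary. This gave 898 cells of 13345 called cells with a receptor chain, and 898 chains of 13497 TRA chains. Every one of them had the deposited name TRAV16N. The joined name TRAV16D-DV11 appeared on 41 contigs in all, 0 of them a productive chain of a called cell.

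A T cell builds its alpha chain by joining 1 of many V segments to 1 of an array of J segments, and the joint, with bases trimmed and added, codes for the CDR3 loop that lies over the presented peptide. CDR1 and CDR2 are coded by the V segment itself. The alpha locus of one chromosome may rearrange again, each time joining another V segment to a J segment further from the V cluster. The mouse V cluster holds duplicated copies of many V segments, marked D and N. In NOD mice, which develop autoimmune diabetes without treatment, TRAV16 joined to TRAJ42 is known from islet CD8 T cells that recognise a peptide of the beta-cell protein IGRP.

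There were 4 libraries, 2 from NOD mice and 2 from Tet2KO NOD mice, which lack Tet2, a dioxygenase that starts the removal of methyl groups from DNA. They are called after their set numbers and always listed in the same order, first NOD 1, then NOD 2, then Tet2KO NOD 1, then Tet2KO NOD 2, which is meant by library order. For each, the islets of 4 to 6 mice were pooled; the Tet2 deletion came from the B6 background and had been crossed to NOD for over 14 generations. The mice were 10 to 13 weeks old according to the series' design text, but the labels count these weeks from something they shorten to BTM and mention marrow donors, so the age and whether mice were transplanted were not settled. The T-cell subset of each cell was not analysed here, and the contig tables hold no measure of Tet2 with which to check the genotype. The pool is the replicate, with 2 per genotype, and a pool may hold cells of several mice, so p-values measure the spread between pools.

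The 4 contig tables rested on 220516119, 140478435, 114106599 and 85137263 reads. A TRAV16 chain had a median of 5, 6, 4 and 6 UMIs (unique molecular identifiers) in library order, against 5, 6, 5 and 6 for other TRA chains. TRAV16 chains were in 440, 268, 72 and 118 cells. Of the 898 cells, 160 held another productive TRA as well, and the TRAV16 chain had the most UMIs in 67 of these. By library this was 14.5%, 25.7%, 16.7% and 12.7% of TRAV16 cells, against 13.1%, 13.4%, 10.9% and 12.0% of all TRA cells with over 1 TRA, so NOD 2 stood above the rest. Across libraries, 81 barcodes occurred in more than 1, covering 163 cells of which 13 had a TRAV16 chain, and 0 had the same TRA CDR3 in both.

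Clonotypes were counted from the 837 TRAV16 cells that held exactly 1 TRB. Cells of 1 library with the same V, J and CDR3 bases in the alpha and in the beta chain formed a clonotype. There were 442 such clonotypes of 7935 over all TRA, with 208, 111, 51 and 72 in the 4 libraries. TRAJ42 was the J segment of 61 clonotypes (326 cells), and the other 381 clonotypes held 511 cells. A clonotype was called expanded when it held at least 2 cells.

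The single name TRAV16N covered 3 different V sequences. Of the 898 contigs, 897 were identical to 1 of the 3 over the 273 bases from framework 1 to framework 3, and the remaining contig differed by 1 base. V sequence 1 had 439 contigs, V sequence 2 had 329 and V sequence 3 had 130. Bases are counted from 1 at the first base of framework 1. The stretch of CDR1 and framework 2, bases 79 to 150, is shown because 4 of the 6 differences lie in it, with the differing bases in capitals.

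V sequence 1: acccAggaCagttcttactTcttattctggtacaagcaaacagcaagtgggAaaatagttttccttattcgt
V sequence 2: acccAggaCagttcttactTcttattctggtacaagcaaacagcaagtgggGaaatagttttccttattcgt
V sequence 3: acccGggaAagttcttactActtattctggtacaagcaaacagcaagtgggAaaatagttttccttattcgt

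The other 2 differences lie at the end of framework 3, bases 235 to 273, again with the differing bases in capitals.

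V sequence 1, framework 3: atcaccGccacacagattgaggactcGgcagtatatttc
V sequence 2, framework 3: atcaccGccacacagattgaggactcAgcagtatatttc
V sequence 3, framework 3: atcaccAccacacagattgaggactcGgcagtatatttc

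V sequences 1 and 2 differed by A130G and G261A, the first of which replaces a lysine codon with a glutamate codon in framework 2 and the second of which is silent. V sequence 3 differed from V sequence 1 by A83G, C87A and T98A in CDR1, which change the codons of glutamine, aspartate and phenylalanine to those of arginine, glutamate and tyrosine, and by G241A in framework 3, which changes alanine to threonine. CDR2 was the same in all 3.

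In the mouse reference GRCm38 the family has 3 copies on the plus strand of chromosome 14: Trav16d-dv11 at chr14:53047287-53047821, Trav16n at chr14:53351028-53351621 and Trav16 at chr14:53743104-53743705, in that order toward the J array, which runs from Traj58 at chr14:54157280-54157342 to Traj2 at chr14:54217836-54217901. Each V sequence was nearest to Trav16d-dv11 and not to the copy whose name the files give. V sequence 1 differed from Trav16d-dv11 by 1 base (G130A), from Trav16n by 4 and from Trav16 by 6. V sequence 2 differed by 1 (G261A), 2 and 4, and V sequence 3 by 5, 6 and 8. No V sequence was identical to a copy of this reference, which is of the B6 strain, so the 3 are called here by number and their places in the V cluster of these mice were not determined.

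All 3 V sequences were found in all 4 libraries. V sequence 1 had 93, 36, 16 and 31 clonotypes, V sequence 2 had 71, 56, 21 and 22, and V sequence 3 had 44, 19, 14 and 19, in the order of libraries given above. There were 0 clonotypes whose cells held more than 1 of them.

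The 3 V sequences used different parts of the J array. TRAJ58 to TRAJ40, the stretch nearest the V cluster, took 76.3%, 77.8%, 68.8% and 67.7% of V sequence 1 clonotypes in library order. The same stretch took 26.8%, 26.8%, 9.52% and 36.4% of V sequence 2 clonotypes, below V sequence 1 in every library and with no overlap. For V sequence 3 it took 59.1%, 63.2%, 57.1% and 47.4%, between the other two in each library. In means, these were 72.7% ± 5.14, 24.9% ± 11.2 and 56.7% ± 6.70 (SD, n = 4 libraries), against 41.2% ± 0.776 for other TRA clonotypes.

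V sequence 2 minus V sequence 1 was -47.8 percentage points, negative in 4 of 4 libraries (exact two-sided permutation test swapping the V sequences within libraries, p = 0.13, the smallest that 4 libraries allow). The pattern did not rest on TRAJ42: without it the stretch took 66.4% ± 7.63 of V sequence 1, 15.7% ± 10.4 of V sequence 2 and 51.5% ± 7.98 of V sequence 3 clonotypes. The far end of the array, TRAJ20 to TRAJ2, took 4.56% ± 3.07 of V sequence 1, 19.2% ± 9.22 of V sequence 2 and 10.5% ± 5.05 of V sequence 3 clonotypes. The difference between V sequences was noticed in these data and then tested in them.

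**Figure D1:**
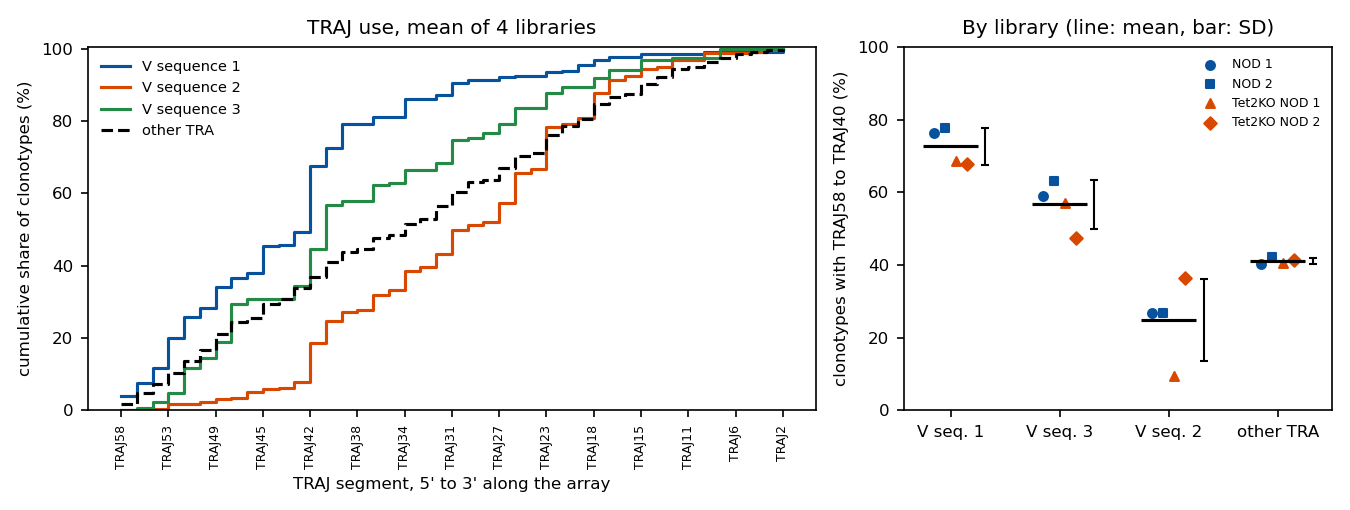
Left, cumulative share of clonotypes in percent (y axis) along the TRAJ array (x axis, TRAJ58 to TRAJ2), as the mean of the 4 libraries, for each V sequence and for other TRA. Right, percent of clonotypes with TRAJ58 to TRAJ40 in each library (points, with the mean as a line and the SD as a bar): V sequence 1 at 72.7%, V sequence 3 at 56.7%, V sequence 2 at 24.9% and other TRA at 41.2%.

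The single J segments that were called followed the same split. Of the 14 TRAJ with enough clonotypes to test, 3 rose in V sequence 2 (21.4%) and 2 fell (14.3%) by edgeR's quasi-likelihood test with Benjamini-Hochberg adjustment. TRAJ23 was in 23 clonotypes of V sequence 2 and 4 of V sequence 1 (log2 fold change 2.46, SE 0.831, adjusted p = 0.0239). TRAJ26 was in 15 and 1 (3.36, SE 1.09, adjusted p = 0.0239), and TRAJ18 in 12 and 1 (3.07, SE 1.16, adjusted p = 0.0323). Against that, TRAJ52 was in 0 clonotypes of V sequence 2 and 14 of V sequence 1, at least 4.51-fold lower (edgeR adjusted p = 0.0239), and TRAJ56 in 0 and 10, at least 3.22-fold lower (edgeR adjusted p = 0.0274). These bounds put the absent segment at 3 clonotypes over the whole group. TRAJ42 itself was in 30 clonotypes of V sequence 1, 22 of V sequence 2 and 9 of V sequence 3, and its log2 difference between the first and the second, -0.38, did not pass the test and turned to 0.0883 with TMM scaling and 0.3202 with DESeq2. Single-segment calls rested on few clonotypes: leaving out 1 library left between 0 and 4 of them, and the log2 fold change of TRAJ23 ran from 1.76 without NOD 2 to 5.09 without NOD 1. Without NOD 2 the edgeR adjusted p was 0.369 for TRAJ23, 0.342 for TRAJ18 and 0.314 for TRAJ52, and without Tet2KO NOD 2 it was 0.232 for TRAJ23 and 0.148 for each of TRAJ18, TRAJ26 and TRAJ52. Where a library was left out and a segment fell under the filter, it was not tested, which applied to TRAJ56 in 3 of the 4 cases. TRAJ18 was tested in 2 of the 4 and called in 0, and TRAJ26 and TRAJ52 were each tested in 3. Of the V sequence 2 clonotypes, 6 with TRAJ18 and 8 with TRAJ23 belong to the groups with a shared beta motif described further on. NOD 1 held 10 of the 14 V sequence 1 clonotypes with TRAJ52.

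Taken as a family, TRAV16 chains used nearly the whole array. Of the 43 TRAJ segments seen with any TRA, 41 had a TRAV16 clonotype. TRAJ6 and TRAJ11 had 0, beside 83 and 44 clonotypes of other TRA, which for TRAJ6 means at least 1.63-fold lower and for TRAJ11 is under the floor of 3 clonotypes. TRAJ58 to TRAJ40 took 55.8%, 49.5%, 41.2% and 52.8% of TRAV16 clonotypes in library order, against 40.4%, 42.1%, 40.6% and 41.5% of other TRA clonotypes. The family mean of 49.8% ± 6.30 exceeded 41.2% ± 0.776 by 8.66 points, in 4 of 4 libraries (exact permutation within libraries, p = 0.13, the smallest possible). TRAJ39 to TRAJ21 differed by -0.549 points (p = 1 by the same exact test). TRAJ20 to TRAJ2 took 11.3% ± 3.05 against 19.5% ± 0.999, a difference of -8.11 points that was negative in 4 of 4 libraries (exact permutation p = 0.13).

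With TRAJ42 left out of both classes, the excess in TRAJ58 to TRAJ40 shrank to 2.42 points (41.8% ± 8.13 against 39.4% ± 0.633, exact permutation p = 0.5). The deficit in TRAJ20 to TRAJ2 stayed at -6.84 points (exact permutation p = 0.13), and the middle stretch turned from -0.549 to 4.41 points (exact permutation p = 0.25).

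TRAJ42 lies at chr14:54175773-54175836 (GRCm38, plus strand). It took 14.9%, 12.6%, 15.7% and 11.1% of TRAV16 clonotypes in library order, and 2.29%, 3.03%, 2.87% and 3.24% of other TRA clonotypes. The 2 classes did not overlap. The log2 fold change was 2.36 (SE 0.245, edgeR quasi-likelihood test with Benjamini-Hochberg adjustment over 73 TRAJ, TRBV and TRBJ segments, adjusted p = 3.5e-08). Seen from the other side, TRAV16 chains made up 26.5%, 20.6%, 22.9% and 19.5% of all TRAJ42 clonotypes. This pairing was known from earlier results of these data and is the base for the splits that follow.

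The next most used segments were closer to their share in other TRA. TRAJ40 took 7.13% ± 3.74 of TRAV16 clonotypes against 4.40% ± 0.535, TRAJ23 6.41% ± 3.20 against 4.84% ± 0.725, TRAJ31 5.56% ± 3.82 against 4.02% ± 0.359, TRAJ34 4.91% ± 2.38 against 2.91% ± 0.609, TRAJ26 4.42% ± 2.51 against 3.41% ± 0.154, TRAJ52 4.01% ± 2.51 against 3.36% ± 0.343, and TRAJ53 3.99% ± 0.480 against 3.04% ± 0.324 (SD, n = 4). None of these 7 passed the test. TRAJ13 fell with 2 TRAV16 clonotypes in all, 0.345% against 2.01% (log2 fold change -2.27, edgeR adjusted p = 0.0413), and TRAJ6 also fell (edgeR adjusted p = 0.0430). Neither call held without NOD 1 (adjusted p 0.289 for TRAJ13 and 0.204 for TRAJ6), without NOD 2 (0.105 and 0.309) or without Tet2KO NOD 2 (0.210 and 0.150).

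Among 30 other TRAV segments with at least 100 clonotypes, the TRAJ use most like that of TRAV16, as the sum over TRAJ of the lower of the 2 mean shares, was that of TRAV6N-7 at 73.0%, TRAV6D-6 at 72.7% and TRAV10D at 71.5%. The median over the 30 was 62.1% and the lowest 44.5%. These values describe mean profiles of the same 4 libraries and carry no test.

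**Figure D2:**
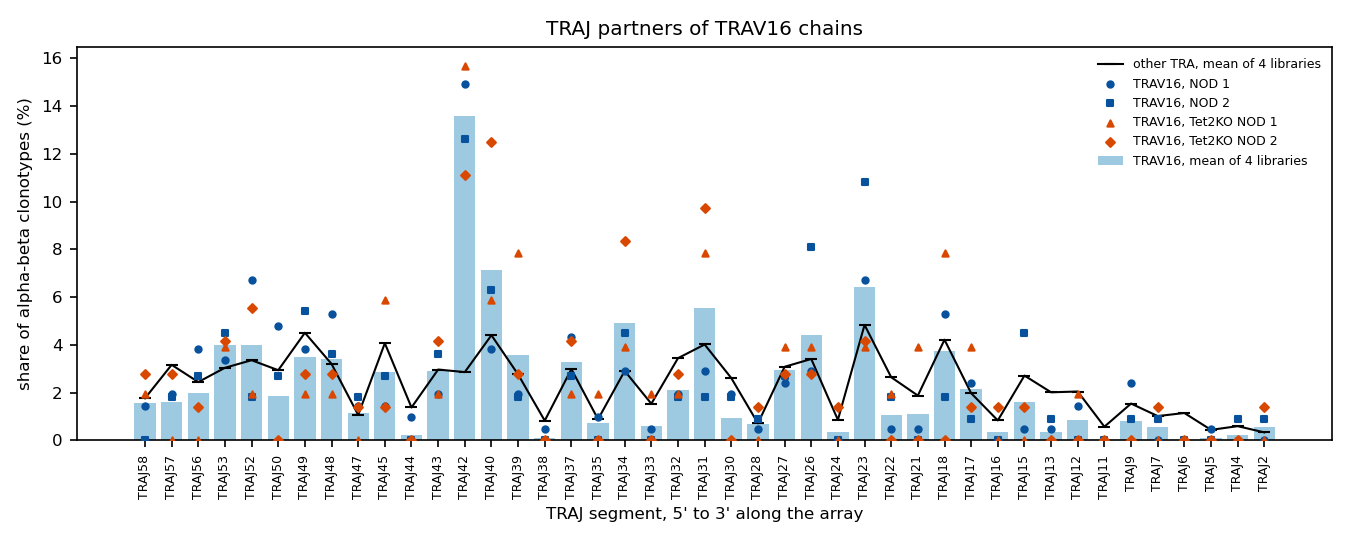
Percent of TRAV16 clonotypes (y axis) at each TRAJ segment in genome order (x axis), with bars for the mean of the 4 libraries, points for each library and a black line for the mean of other TRA clonotypes. TRAJ42 stands at 13.6% against 2.86% for other TRA, and TRAJ6 and TRAJ11 at 0.

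Counted by clonotype, the TRAJ42 joints kept close to the germline. The reference V segment ends, from the codon of the conserved cysteine, at chr14:53351605-53351621 of Trav16n, and TRAJ42 runs to the codon of its conserved phenylalanine at chr14:54175773-54175805 (both GRCm38, plus strand, in lower case as nothing is marked).

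End of the V segment: tgtgctatgagagaggg
TRAJ42: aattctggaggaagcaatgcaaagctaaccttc

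The joints seen with the most beta chains are shown next, since cells that share an alpha joint but differ in the beta chain count as separate clonotypes. Capitals mark bases assigned to neither segment.

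Joint A: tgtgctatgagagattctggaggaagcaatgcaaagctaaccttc
Joint B: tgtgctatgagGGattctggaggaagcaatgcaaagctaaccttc
Joint C: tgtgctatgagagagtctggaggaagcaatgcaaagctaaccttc
Joint D: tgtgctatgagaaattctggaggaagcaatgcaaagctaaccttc

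Joint A, with 0 added bases, occurred in 15 clonotypes with 13 distinct beta chains, 57 cells, in 3 libraries (7 clonotypes in NOD 1, 5 in NOD 2, 3 in Tet2KO NOD 2), and 11 of the 15 used TRBV13-3. Joint B, with 2 added bases, occurred in 8 clonotypes with 8 beta chains and 48 cells in 3 libraries, and 6 of them used TRBV13-3. Joint C occurred in 5 clonotypes and 60 cells, and joint D in 4 clonotypes and 21 cells, each in 2 libraries. Joints A and B code for aspartate at position 5 of the CDR3, counted from the conserved cysteine, joint C for glutamate and joint D for asparagine.

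Of the 361 distinct TRAV16 alpha sequences, 319 were found with 1 beta chain and 42 with at least 2. TRAJ42 accounted for 30 of the 361, and 7 of these 30 had at least 2 beta chains. Across libraries, 31 alpha sequences were in at least 2, 5 in at least 3 and 0 in all 4. The most repeated joint without TRAJ42 was a TRAJ23 joint with 0 added bases, in 5 clonotypes of 1 cell each in 2 libraries.

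TRAJ23 joint: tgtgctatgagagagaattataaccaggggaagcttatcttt

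Added bases averaged 1.51 per TRAJ42 clonotype, with 27 of 61 having none, and 3.99 per clonotype without TRAJ42, with 54 of 381 having none. The 61 TRAJ42 clonotypes had 30 distinct alpha sequences. Joints A, C and D, each with 0 added bases, occurred in 15, 5 and 4 clonotypes. Values here count each clonotype, so a repeated joint weighs more than once. The CDR3 began Cys-Ala-Met-Arg in 61 of 61 TRAJ42 clonotypes and in 347 of 381 without TRAJ42 (91.1%). The glutamate that the germline V codes next was kept in 21 of 61 (34.4%) and 239 of 381 (62.7%).

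A CDR3 of 15 residues, counted from the cysteine to the phenylalanine, was the rule with TRAJ42: 47 of 61 clonotypes (77.0%) and 251 cells, in all 4 libraries. At position 5 of these 47, aspartate was coded in 24 clonotypes (51.1%, 108 cells, in 4 libraries), glutamate in 9, asparagine in 6, alanine, valine and leucine in 2 each, and histidine and isoleucine in 1 each. By distinct CDR3 nucleotide sequence, aspartate rested on 3, glutamate on 5 and asparagine on 2. Joints A and B, with 15 and 8 clonotypes, both code for aspartate, so its count repeats few alpha joints over different beta chains. The single histidine clonotype held 26 cells. The other group of size was 18 residues, 6 clonotypes with 67 cells in 4 libraries, of which 3 with 64 cells used TRBV16. Without TRAJ42, lengths spread from 11 residues upward, with 14 residues the most frequent (113 clonotypes, 29.7%).

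As a family, TRAV16 CDR3 alpha loops averaged 14.7 ± 0.0793 residues against 13.6 ± 0.0230 in other TRA clonotypes (SD, n = 4 libraries), longer by 1.11 in 4 of 4 libraries (exact permutation within libraries, p = 0.13, the smallest possible), and by 1.02 without TRAJ42. Their beta partners had 14.0 ± 0.142 residues against 14.0 ± 0.0386, a difference of 0.0159 (exact permutation p = 1).

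The beta partners of TRAV16 chains differed from those of other TRA clonotypes at several TRBV segments. In the test over 73 segments, 6 rose (8.22%) and 4 fell (5.48%). The 6 that rose were TRAJ42 and 5 TRBV segments, and the 4 that fell were TRBV19, TRBV5, TRAJ13 and TRAJ6. At an unadjusted p under 0.05 there were 17, and DESeq2 called 5.

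TRBV13-3 was in 12.0%, 12.6%, 11.8% and 9.72% of TRAV16 clonotypes in library order, against 4.95%, 5.11%, 5.11% and 4.72% of others, with no overlap (log2 fold change 1.24, SE 0.205, edgeR adjusted p = 7.81e-05). TRBV3 was in 8.65%, 7.21%, 11.8% and 12.5% against 4.10%, 4.15%, 5.00% and 4.72%, again with no overlap (1.10, edgeR adjusted p = 0.00254). TRBV12-1 was in 3.85%, 4.50%, 11.8% and 1.39% against 1.60%, 1.12%, 1.91% and 0.983%, so Tet2KO NOD 1 was high and Tet2KO NOD 2 was within the range of the others (1.67, edgeR adjusted p = 0.00524). TRBV12-2 took 2.36% against 0.821% (1.59, edgeR adjusted p = 0.0413), and TRBV17 3.66% against 1.37% (1.28, edgeR adjusted p = 0.0460). The files also use the joined name TRBV12-2+TRBV13-2, so the assignment to TRBV12-2 is uncertain.

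TRBV5 took 5.43% ± 0.908 of TRAV16 clonotypes against 10.6% ± 0.446 (log2 fold change -0.91, edgeR adjusted p = 0.00649), and TRBV19 5.04% against 8.90% (-1.06, edgeR adjusted p = 0.00546). Among the most used segments that did not pass the test, the joined name TRBV12-2+TRBV13-2 took 8.69% ± 4.28 against 11.3% ± 1.04, TRBV15 7.60% ± 2.64 against 5.31% ± 0.952, TRBV16 6.23% ± 2.03 against 6.99% ± 0.362 and TRBV1 5.60% ± 3.89 against 6.99% ± 0.975. TRBJ2-7, the most used J of the beta chain, took 24.8% ± 1.08 against 20.1% ± 1.69 and TRBJ2-5 13.1% ± 1.80 against 12.3% ± 0.946. TRBJ2-1 took 11.7% against 10.3%, TRBJ1-1 took 10.3% against 9.28%, and these 4 TRBJ segments did not pass either.

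TRAJ42 and TRBV13-3 were called whichever library was left out. Without NOD 2, TRBV3 had an adjusted p of 0.0512 and TRBV12-1 of 0.152. TRBV5 and TRBV19 were not called without NOD 1 (0.0736 and 0.289) or NOD 2 (0.0595 and 0.105), and TRBV12-2 and TRBV17 were not called whichever library was left out (highest adjusted p 0.289 for each, by edgeR).

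**Figure D3:**
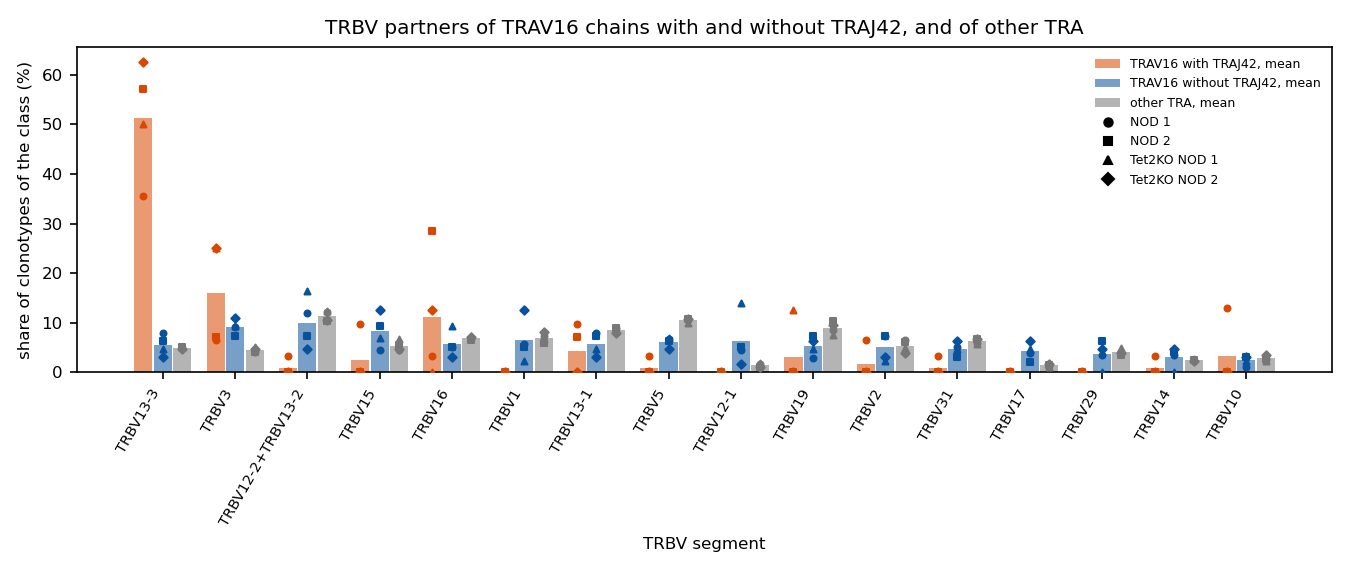
Percent of the clonotypes of a class (y axis) with each TRBV segment (x axis), for TRAV16 with TRAJ42, TRAV16 without TRAJ42 and other TRA; bars are means of the 4 libraries and points are libraries. TRBV13-3 lies at 51.3% with TRAJ42, 5.47% without it and 4.97% in other TRA.

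TRBV13-3 was the TRBV segment that edgeR called between TRAV16 clonotypes with and without TRAJ42. TRBV13-3 was in 35.5%, 57.1%, 50.0% and 62.5% of TRAV16 clonotypes with TRAJ42 and in 7.91%, 6.19%, 4.65% and 3.12% of those without, in library order and with no overlap. Over the 17 TRBV segments tested it was the 1 called (5.88% rose, 0.0% fell), with a log2 fold change of 2.94 (SE 0.527, edgeR adjusted p = 1.64e-05). It was called whichever library was left out, while TMM scaling lowered the log2 fold change to 1.5 (edgeR adjusted p = 0.0113) and DESeq2 called 0, with 2.22 and an adjusted p of 0.343 for TRBV13-3; 4 segments had an unadjusted p under 0.05 by edgeR. TRBV3 was in 7 of 61 clonotypes with TRAJ42 (15.9% on average) and 34 of 381 without (9.12%), against 4.49% in other TRA, and did not differ past the threshold between the 2 classes (edgeR adjusted p = 0.564). TRBV16 was in 6 and 20.

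On the J side of the beta chain, TRBJ2-7 was in 53.4% ± 11.4 of clonotypes with TRAJ42 and 20.3% ± 2.88 of those without. TRBJ2-5 was in 0 of 61 and in 55 of 381 (15.2% ± 2.32). TRBJ segments were not tested between these classes. CDR3 beta loops were 13.2 ± 0.203 residues with TRAJ42 and 14.1 ± 0.161 without, shorter in 4 of 4 libraries, a difference of -0.956 (exact permutation within libraries, p = 0.13, the smallest possible).

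With TRAJ42 clonotypes left out of both classes, 4 of 72 segments rose in TRAV16 (5.56%) and 1 fell (1.39%) by edgeR's quasi-likelihood test. TRBV12-1 had a log2 fold change of 1.91 (SE 0.432, edgeR adjusted p = 0.00108), TRBV12-2 of 1.79 and TRBV17 of 1.53 (edgeR adjusted p = 0.0280 for both), and TRBV3 of 1.06 (edgeR adjusted p = 0.0106). TRBV19 fell by 0.91 on the log2 scale (edgeR adjusted p = 0.0478). TRBV13-3 was then in 5.47% ± 2.05 against 4.96% and did not pass (0.345, edgeR adjusted p = 0.466). Between 0 and 2 of these 5 calls were left when 1 library was omitted, with log2 fold changes of 1.62 to 2.32 for TRBV12-1, 1.57 to 1.85 for TRBV12-2, 1.41 to 1.75 for TRBV17, 1.00 to 1.12 for TRBV3 and -1.14 to -0.54 for TRBV19. TRBV12-1 was not called without NOD 1 (adjusted p = 0.114 by edgeR) or NOD 2 (0.139), TRBV3 was not called without NOD 1 (0.255), NOD 2 (0.131) or Tet2KO NOD 2 (0.0525), and the other 3 were not called whichever library was left out.

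One beta chain recurred with TRAJ42 in every library. A CDR3 beta of 12 residues with TRBV13-3 and TRBJ2-7, with glycine, aspartate and asparagine at its centre, was coded by 5 different nucleotide sequences in 5 clonotypes with 21 cells and 4 alpha sequences. Of 6 clonotypes with this beta protein over all TRA, 5 were TRAV16 with TRAJ42. The sequences are shown because the differing codons, in lower case like the rest, give the same protein.

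NOD 1, 8 cells: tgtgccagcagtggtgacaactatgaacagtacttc
NOD 1, 2 cells: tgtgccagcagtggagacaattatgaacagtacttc
NOD 2, 4 cells: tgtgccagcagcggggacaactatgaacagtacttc
Tet2KO NOD 1, 3 cells: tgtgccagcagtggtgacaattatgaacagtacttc
Tet2KO NOD 2, 4 cells: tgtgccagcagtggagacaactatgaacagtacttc

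Without TRAJ42, a pair of J and beta segments recurred with a shared beta motif, and both were noticed in these data and carry no test. The first joined TRAJ18 to TRBV12-1. TRAV16 with TRAJ18 is not the receptor of invariant NKT cells, which carry TRAV11 with TRAJ18. There were 7 such clonotypes with 20 cells in NOD 1, NOD 2 and Tet2KO NOD 1, and 5 of the 7 were expanded. All 7 had a CDR3 alpha of 16 residues and a CDR3 beta of 14 residues holding Arg-Leu-Gly-Val. They had 7 different alpha and 7 different beta nucleotide sequences, coding for 3 alpha and 6 beta proteins, and 6 of the 7 carried V sequence 2. The beta sequences follow, with the motif codons in capitals.

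NOD 1, 4 cells: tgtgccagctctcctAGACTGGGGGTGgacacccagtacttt
NOD 1, 1 cell: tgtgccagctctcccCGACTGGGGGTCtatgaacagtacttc
NOD 1, 1 cell, other TRBJ: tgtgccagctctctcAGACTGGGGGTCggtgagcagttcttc
NOD 2, 2 cells: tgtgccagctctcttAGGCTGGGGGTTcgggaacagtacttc
Tet2KO NOD 1, 6 cells: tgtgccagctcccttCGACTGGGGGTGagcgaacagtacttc
Tet2KO NOD 1, 4 cells: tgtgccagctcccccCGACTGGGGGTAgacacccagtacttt
Tet2KO NOD 1, 2 cells: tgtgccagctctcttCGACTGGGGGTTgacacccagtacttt

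The alpha joints of the largest clonotype in each of these 3 libraries are shown with bases of neither segment in capitals.

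NOD 1, alpha: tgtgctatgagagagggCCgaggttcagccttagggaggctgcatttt
NOD 2, alpha: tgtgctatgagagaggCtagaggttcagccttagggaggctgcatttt
Tet2KO NOD 1, alpha: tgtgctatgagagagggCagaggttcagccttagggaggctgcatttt

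TRBV12-1 was in 7 of 17 TRAV16 clonotypes with TRAJ18 (41.2%) and in 5 of 318 other TRA clonotypes with TRAJ18 (1.57%). With other TRA there were 2 clonotypes, 4 cells, that had TRBV12-1 and the motif, and all 4 cells also held the TRAV16 chain. With TRAJ18 left out of both classes, TRBV12-1 no longer passed the test against other TRA (log2 fold change 1.12, edgeR adjusted p = 0.110).

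The second pair joined TRAJ23 to TRBV15, in 11 clonotypes with 23 cells in NOD 1, NOD 2 and Tet2KO NOD 2. Of these, 9 clonotypes with 21 cells held Asp-Ser-Ser-Tyr in a CDR3 beta of 13 residues with TRBJ2-7. They had 1 alpha protein from 5 nucleotide sequences and 2 beta proteins from 4, 8 of the 9 carried V sequence 2, and 4 were expanded. Shown are 3 of the alpha joints, with bases of neither segment in capitals, and 3 of the beta sequences, with the motif codons in capitals. Of these 3 beta sequences, 2 share the motif bases and differ in the 2 codons before them. The third codes for the motif with other bases. In NOD 2, the second alpha and the second beta come from different clonotypes.

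NOD 1, alpha: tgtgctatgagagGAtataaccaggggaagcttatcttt
NOD 2, alpha: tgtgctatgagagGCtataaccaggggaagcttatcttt
NOD 2, second alpha: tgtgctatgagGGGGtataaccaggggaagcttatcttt
NOD 1, beta: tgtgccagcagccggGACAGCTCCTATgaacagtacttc
NOD 2, beta: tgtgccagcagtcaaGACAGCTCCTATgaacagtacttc
NOD 2, second beta: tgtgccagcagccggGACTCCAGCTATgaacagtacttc

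TRBV15 was in 11 of 31 TRAV16 clonotypes with TRAJ23 (35.5%) and in 18 of 341 other TRA clonotypes with TRAJ23 (5.28%). With other TRA, 1 clonotype of 3 cells had TRBV15 and the motif, and 0 of its cells held the TRAV16 chain.

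Clone sizes split at TRAJ42. Among TRAV16 clonotypes with TRAJ42, 45.2%, 64.3%, 37.5% and 62.5% were expanded in library order, on 31, 14, 8 and 8 clonotypes. Among those without TRAJ42, 14.1%, 18.6%, 11.6% and 12.5% were expanded, and the 2 classes did not overlap. On average 52.4% ± 13.1 and 14.2% ± 3.08 were expanded (SD, n = 4 libraries), 38.2 points apart and positive in 4 of 4 libraries (exact permutation within libraries, p = 0.13, the smallest possible). Other TRA clonotypes with TRAJ42 were expanded in 14.0%, 13.0%, 7.41% and 12.1%.

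Against other TRA clonotypes, at 14.96% ± 2.85, the whole family stood at 19.2% ± 3.66. It was higher in 3 of 4 libraries, by 4.24 points on average (exact permutation p = 0.375), which became 1.72 points without NOD 2 and 6.74 without Tet2KO NOD 1. Without TRAJ42 the difference was -0.758 points (exact permutation p = 0.75). Clonotypes of at least 10 cells numbered 13 in the family, 10 of them with TRAJ42. In library order they were 19.4%, 21.4%, 0.0% and 12.5% of clonotypes with TRAJ42 and 1.13%, 1.03%, 0.0% and 0.0% of those without. Other TRA had 96 such clonotypes, at 1.33%, 0.954%, 2.34% and 0.688%. Expanded clonotypes held 90%, 95.7%, 61.5% and 89.3% of TRAV16 cells with TRAJ42, and 33.6%, 44.8%, 33.3% and 31.7% of those without.

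**Figure D4:**
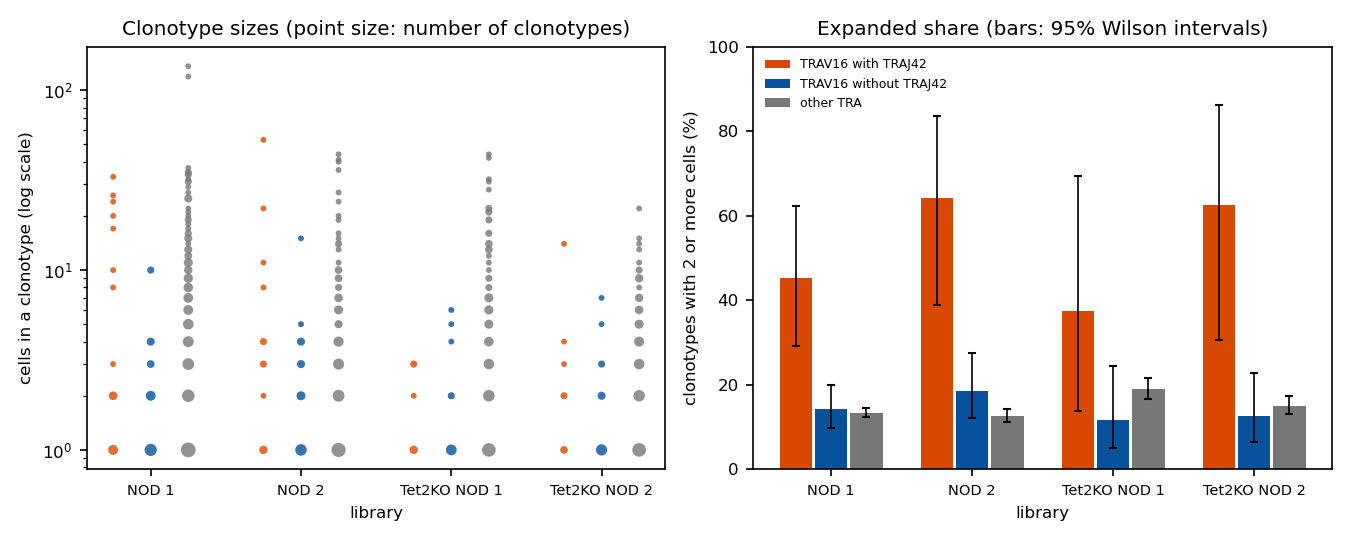
Left, cells per clonotype on a log axis in each library, point size growing with the number of clonotypes of that size. Right, percent of clonotypes with at least 2 cells, with 95% Wilson intervals that cover counting error only: those with TRAJ42 lie between 37.5% and 64.3%, above those without TRAJ42 in every library.

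The largest clonotypes are shown by their alpha joint, with bases of neither segment in capitals. In NOD 1 the largest held 33 cells, with TRAJ42 and TRBV13-3. In NOD 2 it held 53 cells, with TRAJ42, an 18-residue CDR3 with 4 added bases, and TRBV16. In Tet2KO NOD 2 it held 14 cells, with TRAJ42 and TRBV16. In Tet2KO NOD 1 it was the 6-cell TRAJ18 clonotype already shown, while the largest with TRAJ42 held 3 cells.

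NOD 1, 33 cells: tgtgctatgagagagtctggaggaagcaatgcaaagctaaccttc
NOD 2, 53 cells: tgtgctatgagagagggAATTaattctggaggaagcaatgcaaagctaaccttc
Tet2KO NOD 2, 14 cells: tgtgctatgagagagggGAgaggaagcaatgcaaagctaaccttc

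Without TRAJ42 the largest clonotypes held 10 cells in NOD 1 (TRAJ49 with TRBV12-2+TRBV13-2), 15 in NOD 2 (TRAJ56 with TRBV17), 6 in Tet2KO NOD 1 and 7 in Tet2KO NOD 2 (TRAJ23 with TRBV15). The V sequences shared the TRAJ42 cells unequally, with 203 of the 326 on V sequence 1, 111 on V sequence 2 and 12 on V sequence 3.

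There were 5 TRAV16 clonotypes identical in both chains in 2 libraries, each time NOD 2 and Tet2KO NOD 2. They were a TRAJ42 and TRBV13-3 clonotype with 22 and 2 cells, a TRAJ40 and TRBV3 clonotype with 4 and 1, and 3 clonotypes with 1 cell in each library, of which 1 was TRAJ42 with TRBV13-3, 1 TRAJ7 with TRBV15 and 1 TRAJ23 with TRBV15. By their labels these 2 pools are of different genotypes and have the same set number. Whether any of these sequences passed from one library to the other was not tested, and counts of libraries per sequence include them.

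Tet2 genotype was compared over the pools, 2 against 2, for which the smallest exact permutation p is 0.333. TRAV16 took 5.25%, 5.86%, 5.15% and 6.61% of clonotypes in library order, so the genotypes overlapped (log2 fold change 0.11, SE 0.157, edgeR adjusted p = 0.997). In that test 0 of 127 segments were called in either direction (0.0%), 5 had an unadjusted p under 0.05 and DESeq2 called 0. By cells, TRAV16 took 7.17% and 10.4% against 4.36% and 7.90%, a difference of -2.66 points with overlap (exact permutation p = 0.667). Leaving out 1 library gave -4.29 (NOD 1), -1.04 (NOD 2), -0.895 (Tet2KO NOD 1) and -4.43 (Tet2KO NOD 2). Without TRAJ42 the shares were 4.12% and 5.78% against 3.55% and 5.89%, a difference of -0.225.

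The TRAJ partners of TRAV16 chains showed no called difference by genotype: edgeR called 0 of 18 segments in either direction (0.0%), 2 had an unadjusted p under 0.05, and DESeq2 called 0. TRAJ42 had a log2 difference of -0.12 between genotypes, which turned to 0.0642 with TMM scaling. Its share of TRAV16 cells, as distinct from clonotypes, was 42.6%, 44.6%, 18.6% and 25.5% in library order, so the genotypes did not overlap. With each clonotype weighted by its cells, the log2 difference of TRAJ42 between genotypes was -0.97 (edgeR adjusted p = 0.0573 over the TRAJ tested), which did not pass the threshold. The largest clonotype alone held 53 of the 115 TRAJ42 cells of NOD 2 and 33 of the 170 of NOD 1.

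The expanded share of TRAV16 minus that of other TRA clonotypes averaged 8.61 points in NOD and -0.119 in Tet2KO NOD, with no overlap (difference -8.73, exact permutation p = 0.333, the smallest possible). This was -5.52 without NOD 2 and -5.60 without Tet2KO NOD 1, -11.9 without NOD 1 or without Tet2KO NOD 2, and -4.62 with expansion set at 3 cells or more. By library, 18.75%, 24.3%, 15.7% and 18.1% of TRAV16 clonotypes were expanded, in library order. Other TRA clonotypes stood at 13.3%, 12.5%, 18.9% and 15.04%. The genotype difference therefore combines lower shares of TRAV16 and higher shares of other TRA in Tet2KO NOD, and is not of TRAV16 alone. V sequence 1 made up 38.6% of TRAV16 clonotypes in NOD and 37.2% in Tet2KO NOD on average (exact permutation p = 0.667).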

How the data were processed

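The deposited tables give, per contig, whole-number counts of reads and UMIs with segment names, CDR3 and flags, per the file headers. The submitters' processing notes name Cell Ranger 7.0.1 and the build GRCm38 (mm10); which V(D)J segment set the authors used was not stated there, and the labels' protocol describes nuclei and other libraries of the study, not the receptor enrichment.

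Members and lists were chosen with earlier results of these data known. Each productive TRA of a cell with exactly 1 TRB was counted, so a cell with more than 1 TRA entered more than 1 clonotype, and a cell holding more than 1 TRB was dropped as a likely doublet; no doublet caller was run, and cells with over 1 TRA, which can be doublets or T cells with 2 alpha chains, were kept. Segment tests counted clonotypes, not cells, except in the alternative that weighted each clonotype by its cells. The share of cells by genotype was compared over pools. Segment counts were compared with edgeR 4.0.16 (R 4.3.3), quasi-likelihood, with the number of clonotypes as library size, a minimum count of 10 in at least 2 columns (3 for TRAJ by genotype; 10 in total for the 2 comparisons added after seeing the data, between V sequences and by TRAJ42) and Benjamini-Hochberg adjustment at 0.05. The comparisons within TRAV16 chains and against other TRA keep the library as a block. The SE printed with an edgeR log2 fold change is its absolute value divided by the square root of the test's F statistic. It was derived in this way because the test does not report an SE, and the p-values were not computed from it. Shares and lengths used exact permutation over libraries. The script for segment counts was tested on simulated data. Coordinates are those of GENCODE vM21. Named were TRAJ42, called segments, the 8 TRAJ, 6 TRBV and 4 TRBJ most used by TRAV16, the largest clonotype of each library, the 5 alpha sequences with the most TRB, clonotypes in over 1 library and the 3 TRAV most alike in TRAJ use; the 2 motifs, the recurrent beta chain and other segments were chosen after their values were seen. Alternatives were DESeq2 1.42.0, TMM, other filters, chain choices, clone definitions and each library left out.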

Additional observations from a re-analysis of the deposited data

Results flagged for a closer look

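Without TRAJ42, the expanded share of TRAV16 clonotypes minus that of other TRA clonotypes was 0.779 points in NOD 1 and 6.04 points in NOD 2, and -7.31 points in Tet2KO NOD 1 and -2.54 points in Tet2KO NOD 2, so both NOD libraries lay on one side of 0 and both Tet2KO NOD libraries on the other. The genotype difference was -8.34 points (exact two-sided permutation p = 0.333, the smallest that 2 pools against 2 allow), which cannot separate it from the spread between pools. It rests on 25, 18, 5 and 8 expanded clonotypes in library order. The share of other TRA clonotypes that was subtracted was itself higher in both Tet2KO NOD libraries than in both NOD libraries. The difference is therefore not of TRAV16 clonotypes alone.

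TRAV16 contigs in barcodes not called as cells, which no comparison used, made up 22.3% and 26.0% of all TRAV16 contigs in NOD 1 and NOD 2 and 34.9% and 34.2% in Tet2KO NOD 1 and Tet2KO NOD 2. This difference was not tested. The same share was not computed for other TRA contigs, so it cannot be told whether the difference is particular to TRAV16.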

How the results depend on the processing

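The largest moves came from weighting each clonotype by its cells: the TRAJ58 to TRAJ40 difference from other TRA went from 8.66 to 17.8 points, TRAJ39 to TRAJ21 from -0.549 to -8.88 (exact permutation p = 0.13), V sequence 1 by genotype from -1.36 to -15.5 points and TRAJ42 by genotype from -0.12 to -0.97 (log2). The log2 fold change of TRBV13-3 by TRAJ42 went from 2.94 to 1.5 with TMM. The beta CDR3 difference from other TRA turned to -0.235 residues with clonotypes weighted by cells and to -0.00378 with at least 2 UMIs per chain, and the expanded share without TRAJ42 turned to 0.237 points with clones defined by TRB alone. The TRAJ39 to TRAJ21 difference turned to 4.41 points without TRAJ42. V sequence 1 by genotype turned to 0.203 points without barcodes shared between libraries. The cause of these turns was not tested. The main fit made 10 partner calls of 73 segments, 6 higher and 4 lower. DESeq2 called 5 of 73, and at least 2 UMIs per chain gave 6 of 72. Weighting by cells gave 19 of 74, with 5 higher and 14 lower. The 5 calls without TRAJ42 became 3 with TMM, with at least 2 UMIs per chain and with weighting by cells. The 5 calls between V sequences became 3 with no filter and 0 with weighting by cells (edgeR). The TRBV call by TRAJ42 became 2 with TMM, 0 with DESeq2 and 13 with weighting by cells. TRAJ42 turned to 0.0642 by genotype with TMM, and between V sequences to 0.0883 with TMM and 0.3202 with DESeq2.

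With 1 library left out, partner calls ran from 2 to 10, those without TRAJ42 from 0 to 2, those between V sequences from 0 to 4. The ranges that crossed 0 were -0.0907 to 0.2704 (TRAV16 clonotypes by genotype, log2), -0.410 to 1.05 points (the same as shares), -3.02 to 1.43 points (expanded without TRAJ42), -0.0256 to 0.103 residues (CDR3 beta), -2.22 to 1.88 points (TRAJ39 to TRAJ21), -7.50 to 4.78 points (V sequence 1 by genotype) and -0.339 to 0.152 (TRAJ42 by genotype, log2). Ranges on one side of 0 were 1.72 to 6.74 points (expanded, family), -11.9 to -5.52 (the same by genotype), -11.0 to -5.70 (by genotype without TRAJ42) and -4.43 to -0.895 (cells by genotype).

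In segment use the set numbers gave no evidence of pairing: over 127 segments the deviations of same-numbered pools from their group means correlated at -0.0676. The TRAV16 clonotypes given above as identical in both chains between libraries were, however, all shared by NOD 2 and Tet2KO NOD 2, which have the same set number. Fitted with a replicate block for the set number, the TRAV16 difference by genotype was 0.0739 on the log2 scale, TRAJ42 -0.0423, and 0 TRAJ were called. Pools of 51 and 72 TRAV16 clonotypes limit what the Tet2KO NOD libraries can show.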
